A study of Mus musculus with 6 samples.

Results

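The genes described here encode 7 Src family tyrosine kinases (Src, Fyn, Lck, Yes1, Lyn, Fgr and Blk) and a pair of proteins that act on them, Csk and Pag1. They are 9 of the 57126 genes in the deposited count table, found by the Ensembl identifier of each gene, and all 9 had enough counts to be tested. The list was chosen from a comparison of these same libraries, so the differences between the groups are given for its members as a description, without a p-value. The 6 libraries were made from CD8+ T cells of OT-I mice, which carry a transgenic T cell receptor for an ovalbumin peptide, taken from spleens and lymph nodes and harvested on day 6 of culture. All 6 were stimulated with nano-aAPCs, magnetic nanoparticles that present the peptide on a class I molecule together with an antibody to CD28. The 3 TEff samples were expanded in IL-2, and the 3 TRM-like samples in IL-2 with IL-15 and TGF-β added, so that the effects of IL-15 and TGF-β cannot be told apart. No source used here states the age of the animals or whether the 3 samples of a group came from separate animals or cultures, and the p-values below therefore measure only the spread between these samples. In bulk RNA, a change in the number of cells that express a gene and a change in the RNA per cell cannot be told apart.

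Src family kinases sit on the inner face of the plasma membrane, held there by a lipid on a glycine next to the start of the protein and, in most members, by a second lipid on a cysteine nearby. In T cells, Lck, which binds the tails of CD8 and CD4, and Fyn phosphorylate the signalling chains of the T cell receptor, on which ZAP-70 then docks. Csk phosphorylates a tyrosine close to the end of each Src family kinase, which closes the kinase into its inactive form. The membrane adaptor Pag1 brings Csk to the membrane, and the phosphatase CD45, encoded by Ptprc, removes the phosphate again. Src and Yes1 are found in many tissues, whereas Lyn, Fgr and Blk are best known from B cells and myeloid cells.

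The stretches of coding sequence that hold these sites are shown because they mark what the members have in common and where they differ. They were read from the GENCODE transcripts of GRCm39. The first 10 codons of each kinase are given here, with cysteine codons in capitals.
Src: atgggcagcaacaagagcaagcccaaggac
Fyn: atgggcTGTgtgcaaTGTaaggataaagaa
Lck: atgggcTGTgtcTGCagctcaaaccctgaa
Yes1: atgggcTGCattaaaagtaaagaaaacaaa
Lyn: atgggaTGTattaaatcaaaaaggaaagac
Fgr: atgggcTGTgtgttcTGCaagaagttggag
Blk: atggggctgctgagcagcaagaggcaggtc
Csk: atgtcggcaatacaggccgcctggccatcc
All 7 Src family kinases had a glycine codon directly after the start codon and Csk did not. Fyn, Lck and Fgr held 2 cysteine codons within this stretch, Yes1 and Lyn 1, and Src and Blk 0.

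The last 12 codons before the stop codon carry the tail tyrosine that Csk phosphorylates, and tyrosine codons are in capitals.
Src: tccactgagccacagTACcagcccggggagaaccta
Fyn: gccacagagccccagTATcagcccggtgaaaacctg
Lck: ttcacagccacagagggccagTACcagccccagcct
Yes1: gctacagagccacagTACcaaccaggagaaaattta
Lyn: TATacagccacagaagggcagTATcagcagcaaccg
Fgr: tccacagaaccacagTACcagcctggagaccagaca
Blk: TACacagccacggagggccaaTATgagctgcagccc
Csk: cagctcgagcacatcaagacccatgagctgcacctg
The last tyrosine codon was followed by 6 codons in Src, Fyn, Yes1 and Fgr and by 4 in Lck, Lyn and Blk. Csk, which is not regulated through such a tail, had no tyrosine codon here. The coding sequences of the 7 Src family kinases were 60.1% (Lck and Yes1) to 72.0% (Src and Fgr) identical over the 21 pairs, and no pair had an identical stretch longer than 23 bases. How reads that map to several places were counted is not given in the sources used here.

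The libraries were similar in depth and differed in how many genes they detected. Total counts ranged from 18319013 to 21960760 in TEff and from 21178756 to 23622621 in TRM-like samples. TRM-like replicates 1 and 2 had counts on 35130 and 35559 genes, whereas the other 4 libraries had counts on 24229 to 24908. The same 2 libraries had counts on 962 and 1019 of 1580 olfactory, vomeronasal and taste receptor genes, which T cells are not known to use, against 46 to 55 in the other 4. On these measures TRM-like replicates 1 and 2 stood apart from the other 4 libraries, and TRM-like replicate 3 lay with the TEff samples. Values without TRM-like replicate 3 are given for the calls that it changes. Such fits keep only replicates 1 and 2 in the TRM-like group and are not a cleaner comparison. The 5 CD8 T cell markers summed to 1801 to 1840 CPM (counts scaled to the effective library size and given for every 1000000) in TEff and to 2573 to 2744 CPM in TRM-like samples. Of these, Cd8a rose most, from a mean of 436 CPM to 963 CPM, and Cd3e and Trac overlapped between the groups. Of the 2 CD4 T cell markers listed, Cd4 had at most 2 counts in any library, and the other is not reported here.

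Lck had the highest level of the 9 genes in every library. On the scale of CPM per kilobase of gene length, on which genes can be compared, it stood at 142, 152 and 159 in TEff replicates 1 to 3 and at 158, 165 and 161 in TRM-like replicates 1 to 3. Csk followed with medians of 58.4 in TEff and 66.2 in TRM-like samples, and Fyn came next with medians of 26.9 and 52.8 CPM per kilobase. Pag1 came after Fyn in both groups, with medians of 5.59 and 4.24 CPM per kilobase. In TEff samples the order then ran through Lyn (1.69), Fgr (1.12), Blk (0.566) and Yes1 (0.428) to Src (0.0415 CPM per kilobase), and 7 of the 8 neighbouring pairs had no overlapping values. The exception was Blk and Yes1. In TRM-like samples the order below Pag1 was Lyn (4.14), Fgr (2.69), Src (1.85), Blk (0.864) and Yes1 (0.421 CPM per kilobase), so that Src had moved from last to the seventh place. There only 4 of the 8 neighbouring pairs were free of overlap, because Pag1 overlapped Lyn, Lyn overlapped Fgr, Fgr overlapped Src and Blk overlapped Yes1. Without TRM-like replicate 3, 7 of the 8 pairs were free of overlap.

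**Figure D1:**
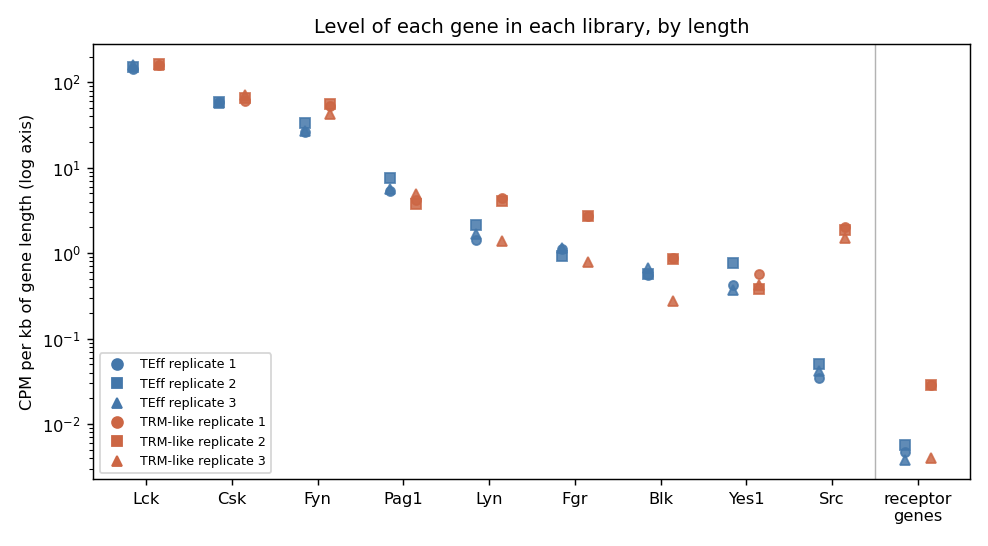
Levels of the 9 genes in each of the 6 libraries, in CPM per kilobase on a log axis, with the pooled level of the olfactory, vomeronasal and taste receptor genes in the last column. Lck, Csk and Fyn lie above the other members in both groups, and Src is the one gene whose TEff points lie far below its TRM-like points.

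Between the groups, Src showed the largest difference of the 9 genes, Fyn was higher by less than 2-fold, and Lck and Csk were nearly level. Src and Fyn were past both thresholds used for differentially expressed genes (DEGs), which were a log2 fold change of more than 0.58 in either direction and an adjusted p under 0.05 in edgeR's quasi-likelihood test, and 0 members were past them in the other direction, in edgeR and in DESeq2 alike. Among the 26154 genes tested, 786 were DEGs (3.01%), of which 398 were higher (1.52%) and 388 lower (1.48%) in TRM-like samples. Of the 9 members, 4 had no overlap between the groups, Src, Fyn and Csk being higher and Pag1 lower in TRM-like samples, against 20.3% of all genes tested. The median log2 fold change was 0.19 over the 9 members and 0.02 over all genes tested. As the members were chosen on this contrast, nothing is read from these counts. Leaving out TRM-like replicate 3 put 5 members past the thresholds, Lyn, Fgr and Pag1 being added, while the share of all genes past them rose from 3.01% to 14.0%. With no filter, and in a fit blocked on replicate number, Lyn and Fgr were also past them and 4 members were in all, but Lyn and Fgr were not past them with the block and a minimum of 10 counts in every sample.

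**Figure D2:**
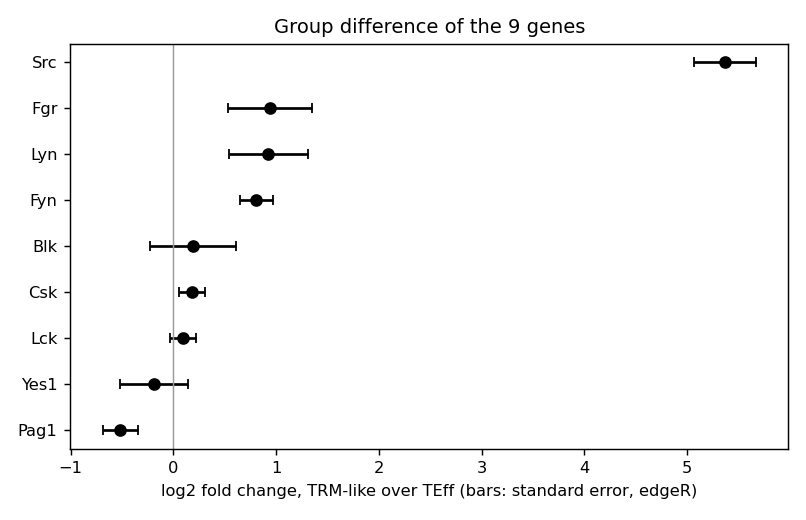
Log2 fold change of each of the 9 genes, TRM-like over TEff, with bars of 1 standard error from edgeR. Src lies at 5.37 and the other 8 genes between -0.52 and 0.94, with the longest bars on Lyn, Fgr and Blk.

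Src, the founding member of the family, is best known for its work at adhesion sites and integrins. The gene lies on the forward strand at chr2:157260355-157313782 of GRCm39. It had 3, 4 and 3 counts in TEff replicates 1 to 3 and 186, 169 and 129 in TRM-like replicates 1 to 3. These counts correspond to 0.137, 0.202 and 0.166 CPM in TEff samples and 8.11, 7.38 and 5.95 CPM in TRM-like samples. The groups were far apart, and TRM-like replicate 3 lay with the other 2 libraries of its group. Mean levels were 0.168 ± 0.0327 CPM (SD, n = 3) and 7.15 ± 1.10 CPM (SD, n = 3), a ratio of 42.4, and the fitted log2 fold change was 5.37 (SE 0.30). Because the TEff level rests on 10 counts in all, the ratio of the pooled counts was known within an exact 95% interval of 23.1 to 89.9, which covers counting error alone. The TEff level was 7.31 to 10.8 times the mean level per length of the olfactory, vomeronasal and taste receptor genes in the same library. In TRM-like samples it was 71.7, 64.2 and 374 times that level. Src was past the thresholds under each of the 11 alternatives in which it could be tested, with log2 fold changes of 5.24 to 5.52. A minimum of 10 counts in every sample removed it. Because the members were chosen on this contrast in these same libraries, nothing is read from their calls, here or below.

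Around its start, the Src gene carries a GC-rich promoter in RefSeq, printed here because Src differed most between the groups. It covers chr2:157424043-157424342 of GRCm38.p6 on the forward strand, an earlier build than that of the counts, and runs from 250 bases before to 50 after the start.
Src promoter: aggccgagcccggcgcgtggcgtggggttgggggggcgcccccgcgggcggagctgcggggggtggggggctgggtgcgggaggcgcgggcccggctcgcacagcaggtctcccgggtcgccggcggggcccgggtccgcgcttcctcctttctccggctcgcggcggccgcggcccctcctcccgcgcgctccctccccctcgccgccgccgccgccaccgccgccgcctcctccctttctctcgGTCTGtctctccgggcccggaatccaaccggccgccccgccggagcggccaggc
The capitals mark the single match to CAGAC, the core of the element bound by the SMAD proteins of the TGF-β pathway, here on the reverse strand. On either strand, CAGAC was held by 49.6% of 32851 mouse promoters of this kind. The window also held 1 match to AGGAAG, a core of ETS factor sites found in 35.35% of promoters. It held 0 matches to TGANTCA, the AP-1 site found in 7.81% of promoters, and 0 to TTCNNNGAA, the STAT site found in 8.30%. Yes1 and 1 of the 2 Csk promoters also had 1 match to CAGAC, and those of Fyn, Lck and Fgr had 0. The promoters of Lyn, Blk and Pag1 were not analysed here.

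Src was compared over the 6 samples with the 14822 genes that had at least 10 counts in every sample, a filter that Src itself did not pass. Among these, Adgrg5, Cdh1, Mtmr12, Cnst and Ski followed its pattern most closely, with Pearson's r of 0.998 to 0.999 on log2(CPM + 0.1). Genes near 0 in TEff samples could not be listed. Cdh1, which encodes E-cadherin, had 0.457 to 0.709 CPM in TEff and 63.8 to 72.9 CPM in TRM-like samples. Ski, which encodes a repressor of SMAD proteins, had 38.1 to 39.4 CPM in TEff and 84.6 to 86.6 CPM in TRM-like samples. The measure of likeness does not depend on the size of the difference, and a gene with tight values in each group scores highly on it.

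Fyn, the second Src family kinase of T cell receptor signalling, lies on the forward strand at chr10:39244851-39442227. It had 99.6, 128 and 103 CPM in TEff replicates 1 to 3 and 203, 214 and 163 CPM in TRM-like replicates 1 to 3. Every TRM-like sample was above every TEff sample, with replicate 3 the lowest of its group. The means were 110 ± 15.4 CPM and 193 ± 26.9 CPM (SD, n = 3 each), a ratio of 1.75, and the log2 fold change was 0.81 (SE 0.16). Fyn lost the adjusted p threshold in 5 of the 6 fits that left out 1 sample and kept it without TRM-like replicate 3, with log2 fold changes of 0.72 to 0.93 over the 6 fits. A long noncoding gene on the opposite strand, Gm31616, shares 465 exonic bases with Fyn and had 16 to 62 counts per library, against 1867 to 4899 for Fyn.

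Lck, the kinase that CD8 carries to the receptor, is encoded on the reverse strand at chr4:129442137-129467434. Its levels were 328, 352 and 368 CPM in TEff and 366, 382 and 373 CPM in TRM-like samples. The groups overlapped, because TEff replicate 3 exceeded TRM-like replicate 1. Mean levels were 350 ± 20.1 CPM and 374 ± 7.91 CPM (SD, n = 3 each), and the log2 fold change was 0.10 (SE 0.13).

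Expressed as a share of the summed CPM per kilobase of the 7 Src family kinases, Lck was below its TEff range in all 3 TRM-like samples. It made up 82.8%, 80.1% and 83.8% of the sum in TEff replicates 1 to 3 and 71.4%, 71.5% and 77.5% in TRM-like replicates 1 to 3. Fyn made up 15.2%, 17.6% and 14.2% in TEff and 23.8%, 24.2% and 20.4% in TRM-like samples. The sum itself was 171 to 190 CPM per kilobase in TEff and 208 to 231 in TRM-like samples. Lck and Fyn together thus supplied most of the Src family kinase RNA in every library. Src made up 0.0201% to 0.0267% of the sum in TEff and 0.717% to 0.917% in TRM-like samples.

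Lyn, Fgr and Blk shared a different pattern, in which TRM-like replicates 1 and 2 were high and replicate 3 was not. Lyn, a kinase that both starts and restrains signalling in B cells and myeloid cells, lies at chr4:3678061-3813122 on the forward strand. It had 4.98, 7.34 and 5.86 CPM in TEff and 15.3, 14.3 and 4.796 CPM in TRM-like samples, so that TRM-like replicate 3 was below every TEff sample. The log2 fold change of Lyn was 0.92 (SE 0.38), and 1.28 without TRM-like replicate 3.

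Fgr, a kinase of neutrophils, monocytes and NK cells at chr4:132701257-132730053 on the forward strand, showed the same split. It had 4.16, 3.44 and 4.31 CPM in TEff and 9.99, 10.004 and 2.91 CPM in TRM-like samples. Its log2 fold change was 0.94 (SE 0.41), and 1.32 without TRM-like replicate 3. Blk, a kinase of the B lineage at chr14:63610285-63654587 on the reverse strand, had 1.28, 1.32 and 1.55 CPM in TEff and 2.05, 2.01 and 0.646 CPM in TRM-like samples. TRM-like replicate 3 was again the lowest of the 6 libraries, and the log2 fold change of Blk was 0.19 (SE 0.42), with values of -0.05 to 0.55 when single samples were left out.

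**Figure D3:**
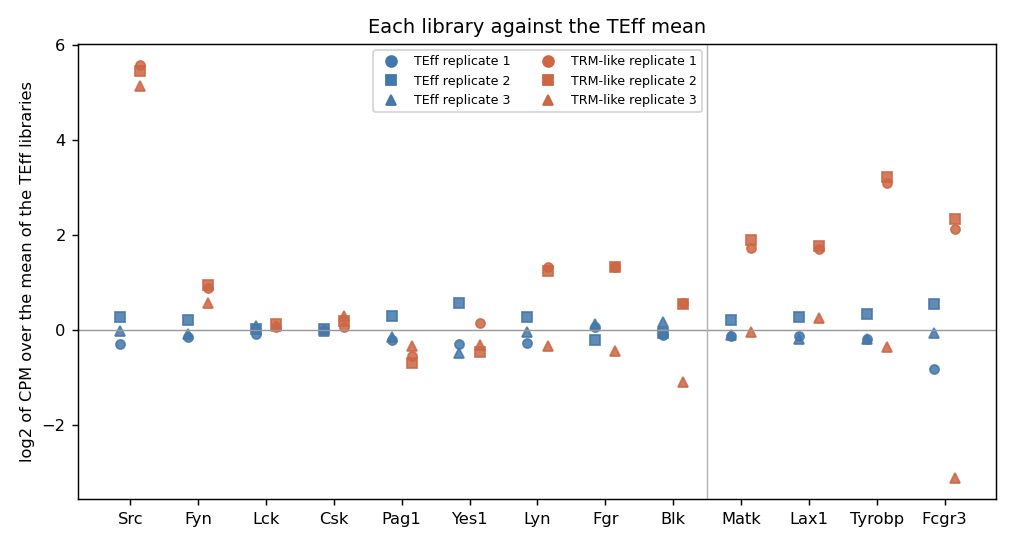
Log2 of each library's CPM over the TEff mean for the 9 genes and, right of the vertical line, for Matk, Lax1, Tyrobp and Fcgr3. TRM-like replicate 3 lies with replicates 1 and 2 for Src and Fyn and apart from them, near or below the TEff samples, for Lyn, Fgr, Blk and the 4 genes on the right.

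Other measures moved with this split among the TRM-like samples. The 1580 olfactory, vomeronasal and taste receptor genes had a mean level of 0.0283, 0.0288 and 0.00399 CPM per kilobase in TRM-like replicates 1 to 3, against 0.00384 to 0.00568 in TEff samples. Blk, the lowest of the kinases that followed the split, had 0.881, 0.864 and 0.278 CPM per kilobase in TRM-like replicates 1 to 3. Whether the level of the receptor genes bears on the split was not tested. The 4 NK cell markers summed to 21.7, 21.4 and 0.922 CPM in TRM-like replicates 1 to 3 and to 11.3, 24.9 and 13.8 CPM in TEff replicates 1 to 3. Tyrobp, the signalling adaptor of NK and myeloid receptors, had 7.63, 8.34 and 0.692 CPM in TRM-like samples and 0.774 to 1.11 CPM in TEff samples. Fcgr3, an Fc receptor gene, had 5.28, 6.12 and 0.138 CPM in TRM-like samples and 0.686 to 1.77 CPM in TEff samples. Klrb1c, which encodes the NK receptor NK1.1 and makes up most of the summed level in TEff samples, was instead higher there, with 9.79, 21.9 and 11.8 CPM against 8.55, 6.68 and 0.0922 CPM in TRM-like samples.

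Markers of the cells in which Lyn, Fgr and Blk are best known were read in the same libraries. The 10 B cell markers summed to 8.23 to 8.96 CPM in TEff samples and to 11.8, 13.6 and 8.67 CPM in TRM-like replicates 1 to 3. Of these, 4 or 5 were at 0 in a TEff library and 2, 1 and 6 in TRM-like replicates 1 to 3, with Iglc2 at 0 in all 6. The 10 monocyte, macrophage and neutrophil markers summed to 4.02 to 4.59 CPM in TEff samples and to 4.84, 5.33 and 2.91 CPM in TRM-like replicates 1 to 3. Between 1 and 6 of them were at 0 in a library, and S100a8 was at 0 in all 6. Of these 20 genes 13 were tested, and 0 were DEGs in edgeR or in DESeq2, with 3 at an unadjusted p below 0.05 in edgeR (Cd79b, Mpeg1 and Cd14). With no filter 2 of the 20 were past the thresholds, and with the replicate block 1 was. Among the genes with too few counts to be tested, Pax5 and Lyz2 were at 0 in every TEff sample. In TRM-like replicates 1 to 3, Pax5 had 14, 10 and 0 counts and Lyz2 had 0, 14 and 0. Without TRM-like replicate 3, Cd79b, Mpeg1 and Adgre1 were past the thresholds. Cd79b had 4.57 to 5.36 CPM in TEff and 6.45, 8.39 and 6.41 CPM in TRM-like replicates 1 to 3. Mpeg1 had 1, 2 and 0 counts in TEff and 12, 15 and 4 in TRM-like replicates 1 to 3. Adgre1 had 1, 0 and 0 against 5, 6 and 0. Cd14 went the other way, with 6, 8 and 5 counts in TEff and 4, 1 and 2 in TRM-like samples. The 5 dendritic cell markers summed to 5.03 to 6.48 CPM in TEff samples and to 6.06, 5.02 and 2.54 CPM in TRM-like replicates 1 to 3, with 0 DEGs in edgeR. The part of such cells, of RNA quality and of TRM-like replicate 3 in the levels of Lyn, Fgr and Blk was not tested.

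Yes1, the broadly expressed relative of Src at chr5:32768101-32845256 on the forward strand, did not follow the split. It had 1.97, 3.54 and 1.71 CPM in TEff and 2.66, 1.75 and 1.94 CPM in TRM-like samples, and the groups overlapped. The log2 fold change was -0.19 (SE 0.33), with values of -0.39 to 0.20 when single samples were left out. These levels rest on 31 to 70 counts per library. Reads of Yes1 could be confused with those of Gm10461 and Gm15614, which share 1049 and 116 exonic bases with it on the opposite strand and had 1 to 14 counts per library, since the strand setting of the counting is not given in the sources used here.

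Csk, the kinase that closes the Src family kinases, is encoded on the reverse strand at chr9:57533543-57560914. It had 195, 196 and 192 CPM in TEff and 203, 221 and 237 CPM in TRM-like samples. The TRM-like values were all above the TEff values, by little. The means were 194 ± 1.92 CPM and 220 ± 17.0 CPM (SD, n = 3 each), a ratio of 1.13, and the log2 fold change was 0.18 (SE 0.13).

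Pag1, the adaptor that holds Csk at the membrane, is encoded on the reverse strand at chr3:9752539-9898739 and had the opposite direction. It had 44.0, 62.4 and 46.1 CPM in TEff and 35.0, 31.4 and 40.3 CPM in TRM-like samples, without overlap. The means were 50.8 ± 10.1 CPM and 35.6 ± 4.499 CPM (SD, n = 3 each), a ratio of 0.700, and the log2 fold change was -0.52 (SE 0.17). Without TRM-like replicate 3 it was -0.62 and past the thresholds.

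The partners of these kinases were followed in 77 further genes, grouped by role, of which 74 had enough counts to be tested. Of these, 5 rose and 4 fell in TRM-like samples, which is 12.2% against 3.01% of all genes tested. The median log2 fold change was 0.11. Among the 65 partner genes with a mean of at least 100 counts, 4 rose and 4 fell, which is 12.3% against 4.75% of all genes of that level. The lists were written from known roles but with earlier results of these data known, so nothing is read from these shares. Frk, Ptk6 and Cav1 had too few counts.

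**Figure D4:**
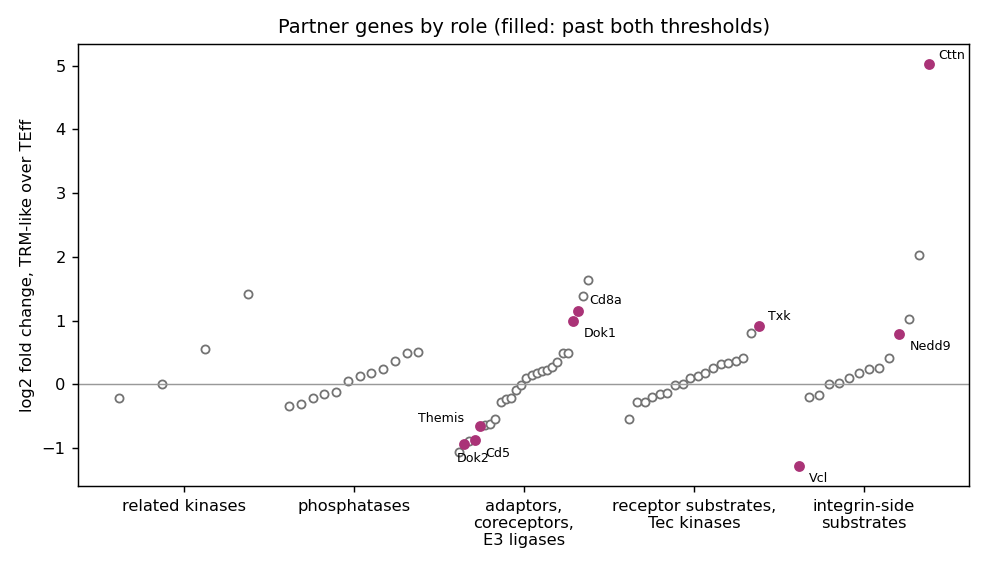
Log2 fold change, TRM-like over TEff, of the tested partner genes in their 5 role lists, with filled points for the genes past both thresholds. Each of the 12 phosphatase genes has an open point, and the filled points lie on both sides of 0 among the adaptors and integrin-side substrates.

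Of the 6 other kinases related to the Src family or to Csk, 4 were tested and 0 were past the thresholds in the main setting of edgeR. At an unadjusted p below 0.05 in edgeR, 2 were higher, Matk and Abl1, and 1, Matk, was past the thresholds in DESeq2. Matk was also past them with no filter and with the replicate block, with or without a minimum of 10 counts in every sample. Matk, which encodes a kinase related to Csk that also acts on the tail tyrosine, had 74.9, 95.1 and 76.6 CPM in TEff and 272, 306 and 80.2 CPM in TRM-like samples. The log2 fold change of Matk was 1.42 (SE 0.41, edgeR adjusted p = 0.128), with TRM-like replicate 3 inside the TEff range. Without that library it was 1.80 and past the thresholds, as were 2 genes of this list in all. Abl1 had 54.0 to 55.4 CPM in TEff and 69.4 to 86.4 CPM in TRM-like samples (log2 fold change 0.56, SE 0.13, edgeR adjusted p = 0.0630).

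Of the 12 phosphatase genes, 0 were past the thresholds in edgeR or in DESeq2. At an unadjusted p below 0.05 in edgeR were 4 of them, 3 higher and 1 lower. The smallest p was that of Ubash3b, with 93.4, 92.0 and 98.6 CPM in TEff and 137, 133 and 133 CPM in TRM-like samples (log2 fold change 0.50, SE 0.12, edgeR adjusted p = 0.0592). Without TRM-like replicate 3, Ptpn12 was past the thresholds. Ptprc, encoding CD45, had the highest level of the 12, with 2083 ± 17.7 CPM in TEff and 1786 ± 58.6 CPM in TRM-like samples (SD, n = 3 each). Its log2 fold change was -0.22 (SE 0.14, edgeR adjusted p = 0.53). Ptpn22, encoding a phosphatase that works with Csk, had a log2 fold change of -0.35 (SE 0.18, edgeR adjusted p = 0.436).

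Among the 26 tested adaptors, coreceptors and ubiquitin ligases that bind the kinases or Csk, 2 rose and 3 fell past the thresholds, against 3 and 7 in DESeq2. At an unadjusted p below 0.05 in edgeR, 6 of the 26 were higher and 7 lower. Cd8a, encoding the CD8 chain that binds Lck, had 439, 448 and 421 CPM in TEff and 927, 972 and 989 CPM in TRM-like samples, and rose by 1.14 on the log2 scale (SE 0.13, edgeR adjusted p = 0.00219). The adaptor genes Dok1 and Dok2, whose proteins restrain receptor signalling, went in opposite directions. Dok1 had 26.6, 25.9 and 27.5 CPM in TEff and 57.4, 64.0 and 37.7 CPM in TRM-like samples (log2 fold change 0.99, SE 0.19, edgeR adjusted p = 0.0274). Dok2 had 113, 118 and 115 CPM in TEff and 63.4, 64.2 and 52.8 CPM in TRM-like samples (log2 fold change -0.94, SE 0.13, edgeR adjusted p = 0.00557). Cd5, encoding an inhibitory receptor, fell, with 148 to 172 CPM in TEff and 74.5 to 96.7 CPM in TRM-like samples (log2 fold change -0.88, edgeR adjusted p = 0.0132). Themis, encoding a regulator of receptor signal strength, fell, with 333 to 424 CPM in TEff and 244 to 251 CPM in TRM-like samples (log2 fold change -0.65, SE 0.14, edgeR adjusted p = 0.0449).

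Of the 18 receptor-proximal substrates and Tec kinases, 1 rose and 0 fell in edgeR and in DESeq2, with 4 higher and 1 lower at an unadjusted p below 0.05 in edgeR. Txk, encoding a Tec family kinase that Fyn phosphorylates, had 21.4, 25.1 and 24.8 CPM in TEff and 49.8, 45.3 and 39.7 CPM in TRM-like samples (log2 fold change 0.92, SE 0.14, edgeR adjusted p = 0.00877). Cd3g, encoding a chain of the receptor complex, had the highest level per length of this list. It stood at 512, 537 and 518 CPM in TEff and at 1060, 1166 and 518 CPM in TRM-like samples (edgeR adjusted p = 0.194), with replicate 3 at the level of the TEff samples. The log2 fold change of Cd3g was 0.81, and 1.08 and past the thresholds without TRM-like replicate 3. It was also past them with no filter and with the replicate block.

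Of the 14 integrin-side substrates, 2 rose and 1 fell past the thresholds, with 4 higher and 1 lower at an unadjusted p below 0.05 in edgeR. Cttn, encoding cortactin, a binder of branched actin and a classical substrate of Src, had 0, 0.0506 and 0.166 CPM in TEff and 2.49, 2.27 and 2.40 CPM in TRM-like samples (edgeR adjusted p = 0.00202). Its counts were 0, 1 and 3 in TEff and 57, 52 and 52 in TRM-like replicates 1 to 3. It had enough counts to be tested only through the TRM-like samples, in which it was high. Nothing is therefore read from its p-value. Like Src, Cttn was low in all 3 TEff and higher in all 3 TRM-like samples. Its haematopoietic relative Hcls1 had 178 ± 9.91 CPM and 178 ± 4.91 CPM (SD, n = 3 each, edgeR adjusted p = 0.997). Nedd9, encoding a docking protein of the integrin pathway, had 107 to 118 CPM in TEff and 186 to 211 CPM in TRM-like samples (log2 fold change 0.79, SE 0.13, edgeR adjusted p = 0.0112). Vcl, encoding vinculin, which links integrins to actin, fell, with 8.78 to 8.91 CPM in TEff and 2.49, 3.06 and 5.40 CPM in TRM-like replicates 1 to 3 (log2 fold change -1.28, SE 0.28, edgeR adjusted p = 0.0438).

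Several of these calls were lost when the fit was made with 5 samples, although their directions stayed the same. Cd8a and Cttn were past the thresholds under every alternative in which they could be tested, and a minimum of 10 counts in every sample removed Cttn. The calls of Dok1, Themis and Vcl were each lost in 5 of the 6 fits that left out 1 sample, those of Cd5 and Nedd9 in 4, that of Txk in 2 and that of Dok2 without TEff replicate 3. Over these 6 fits the log2 fold changes were 0.83 to 1.18 for Dok1, -0.75 to -0.56 for Themis, -1.68 to -1.07 for Vcl, -0.96 to -0.78 for Cd5, 0.73 to 0.83 for Nedd9, 0.84 to 0.99 for Txk and -0.99 to -0.86 for Dok2. Vcl also lost its call with library totals alone and Themis with the replicate block and a minimum of 10 counts. Without TRM-like replicate 3, 19 partner genes were past the thresholds in place of 9, as 14.0% of all genes tested were in place of 3.01%.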

How the data were processed

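The authors used Rsubread to align trimmed reads to GRCm39 and to count them on GENCODE genes. The deposited values are raw, unnormalized counts, with the length of each gene. The submitters' processing notes name cutadapt 4.8 and DESeq2 1.40.2. The strand setting, the handling of reads with several positions and the batch that the study removed are not given in the sources used here. Libraries were made from total RNA with a stranded kit.

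Symbols and coordinates came from GENCODE vM39 of the same build, which held 56620 of 57126 genes. One gene of the lists is not reported here. The members and the gene lists were chosen with earlier results of these data known. The groups were compared with edgeR 4.0.16 in R 4.3.3 (quasi-likelihood F-test, TMM) on genes that had a count of 1 or more in 3 or more samples, with Benjamini-Hochberg adjustment over all genes tested. A DEG had an adjusted p under 0.05 and a log2 fold change of more than 0.58 in either direction. The standard error is the log2 fold change divided by the square root of F. Levels per length used the deposited gene lengths, which for 6 of the 9 members were below that of the reference transcript. Intervals on ratios of pooled counts are exact, from the binomial distribution, and cover counting error only. Promoters came from RefSeq (GRCm38.p6).

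The partner genes named are those past the thresholds and the gene of the highest level per length in each list, and the 5 genes most like Src those with the highest r. Ptpn22, Ptpn12, Ubash3b, Abl1, Lax1 and the genes named from the marker lists were named after their values were seen. The alternatives were DESeq2 1.42.0, DESeq2's size factors, library totals, no filter, at least 10 counts in every sample, the replicate block, subtraction of the receptor-gene level and each sample left out. The block with the stricter filter and the transcript lengths were added after seeing the data. The test was tested on simulated data.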

Additional observations from a re-analysis of the deposited data

How the results depend on the processing

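Main counts were 786 DEGs among all genes, 9 among partner genes and 4 neighbouring members apart in the TRM-like order. DESeq2 gave 1256 and 15 DEGs, no filter 1868 and 17, and the replicate block 2034 and 17. The block and a minimum of 10 counts per sample together gave 903 and 13, and the prior degrees of freedom were infinite under the block alone and 8.30 with that minimum. Samples of the same number correlated at -0.292, 0.309 and 0.389 in their deviations from the group means over 14822 genes. With so few samples in a group, these values cannot decide whether the numbers pair the samples. Leaving out 1 sample gave 263 to 3579 DEGs, 2 to 19 among partner genes, and 3 to 7 neighbouring members apart in TRM-like samples, each maximum being reached without TRM-like replicate 3. Of the 786 DEGs, 774 were also called without that sample. The log2 fold change of Hcls1, 0.00 in the main setting, was -0.0040 with no filter and -0.0443 to 0.0442 with 1 sample left out. Levels per length gave the same number of neighbours apart with transcript lengths. The causes were not tested. With 3 to 4 counts of Src per TEff library, depth limits the size of its difference.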
